A study of Bos taurus with 8 samples.

Results

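Heparan sulfate and chondroitin sulfate proteoglycans were followed in bovine granulosa cells through the genes that build them. The set was every gene on the array whose symbol belongs to the heparan sulfate sulfotransferases (HS2ST, HS3ST, HS6ST, NDST), the exostosins (EXT), the syndecans (SDC), the glypicans (GPC), the sulfatases SULF, the CHST sulfotransferases, the chondroitin synthases (CHSY), the CSGALNACT, XYLT and B3GAT transferases, or the epimerase GLCE. This rule found 53 genes with 69 probes among the 15216 genes named on the array. A gene was tested when at least 1 of its probes exceeded the negative controls, which held for 45 of the 53 member genes and for 14138 of all genes. CHST3, CHST4, CHST6, EXTL3, GPC2, HS3ST1, HS6ST1 and NDST3 had no tested probe and are not described further. The family name joins several unlike roles, since 9 of the 53 genes encode transferases that act on other glycans.

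Granulosa cells line the ovarian follicle, and the surge of luteinizing hormone (LH) starts their change towards ovulation and luteal function. The cells came from normally cyclic Holstein Friesian cows, 30 in the whole study, all given norgestomet ear implants, estradiol valerate, prostaglandin and ovine FSH. The pre-LH group, named as 2 h before the surge, was taken 2 h after removal of the last implant, from follicles of 6 to 8 mm. The 6 h and 22 h groups received GnRH at implant removal to induce the surge and were taken 8 h and 24 h after it, the 6 h group from follicles above 8 mm and the 22 h group from pre-ovulatory follicles, so follicle size moved with time. No age was given in the labels, and none says how many cows made up a replicate or that replicates came from separate animals. The p-values therefore measure the spread between these RNA samples. Follicles were opened once the oocyte and cumulus were out, and the lining was scraped off; the labels' protocols call the product mainly mural granulosa cells, with some theca cells detected by PCR for CYP17. Each of 8 arrays compared 1 post-LH replicate with 1 pre-LH replicate in 2 colours, with 4 arrays per time and the dyes swapped on 2 of each 4. All values below are log2 ratios of post-LH over pre-LH RNA unless called levels, and a gene is represented by its brightest tested probe.

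A proteoglycan is a core protein that carries long sulfated sugar chains. The chains begin on a short linker attached to the protein by xylosyltransferases and completed by glucuronyltransferases. EXT1 and EXT2 then lengthen heparan sulfate, while chondroitin synthases lengthen chondroitin sulfate. Sulfotransferases and an epimerase pattern the chains, and that pattern sets which growth factors, chemokines and protease inhibitors bind. In the follicle, heparan sulfate of granulosa cells is known, from work in the rat, to include forms that bind antithrombin, and chondroitin sulfate proteoglycans are part of follicular fluid and of the expanding cumulus matrix.

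The arrays of a time correlated in their ratios over probes with r from 0.55 to 0.87 at 6 h and from 0.54 to 0.75 at 22 h, and 75.1% to 85.4% of probes were detected in each channel. Replicate 4 stood apart in level. Its 4 channels, post-LH and pre-LH on both slides, correlated at 0.84 to 0.88 with the channels of replicates 1 to 3, which correlated at 0.96 to 1 among themselves. Replicate 4 differed from the median of the others by at least 2-fold in the same direction in all 4 channels for 8 of 45 member genes (17.8%), against 14.9% of all genes. CHST1, CHST12, GPC1, GPC5, SDC2, SDC3 and SDC4 were higher in it and GPC3 was lower. The gap was widest for GPC5, a glypican, with 3.88 and 4.69 in the pre-LH channels and 3.54 and 4.83 in the post-LH channels. Ratios within an array remove a gap shared by both of its channels, and results that rest on replicate 4 are given below with and without it.

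**Figure D1:**
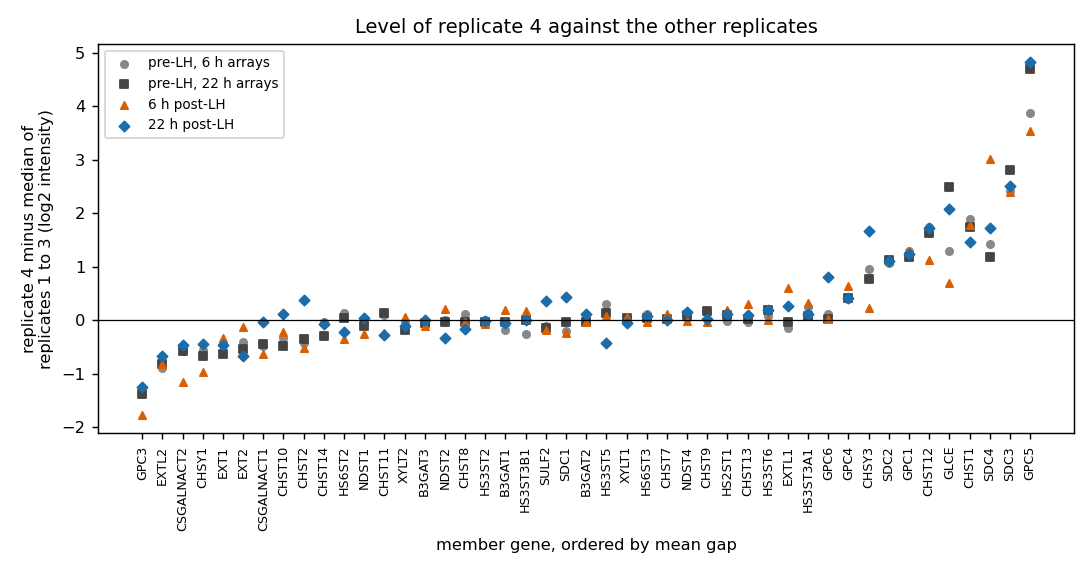
Level of replicate 4 minus the median level of replicates 1 to 3 (vertical axis, log2 intensity) for the 45 tested member genes (horizontal axis, ordered by mean gap), with 1 point for each of the 4 kinds of channel. Most genes lie near 0 in all 4 channels, while GPC5 reaches 4.83 and GPC3 lies between -1.78 and -1.25.

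The granulosa label was set against its markers. All 12 granulosa markers were above background, among them FSHR, CYP19A1, FST and INHA, and their mean level ran from 11.36 to 11.58 before the surge, 10.56 to 10.65 at 6 h and 10.09 to 10.87 at 22 h. At 6 h 8 of them were lower and none was higher, and at 22 h 5 were lower and 1, NR5A2, was higher. Over all tested genes 12.9% were lower and 11.6% higher at 6 h, and 10.8% lower and 9.82% higher at 22 h. The 10 theca markers were also all above background, with a mean level from 11.02 to 11.19 before the surge, 10.38 to 10.67 at 6 h and 10.06 to 10.32 at 22 h. At 6 h 6 theca markers were lower and 1, CYP17A1, was higher (0.36), and at 22 h 8 were lower, CYP17A1 among them (-1.88), and 1, PTCH1, was higher. STAR, LHCGR and NR5A1 of the theca list are also expressed in granulosa cells, and its defining markers CYP17A1, INSL3 and COLEC11 were detected. In RNA from a whole scraping, fewer cells of a type and less RNA per cell cannot be told apart. Any part of the theca decline in the lower member genes was not tested.

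At 6 h 16 of the 45 tested member genes passed an adjusted p of 0.05 (35.6%), where 24.5% of all tested genes did. Of these 3 were higher, against 11.6% of all genes, and 13 were lower, against 12.9%. At 22 h 14 passed (31.1%), where 20.6% of all genes did, with 5 higher against 9.82% and 9 lower against 10.8%. In the difference between the changes at 22 h and 6 h, 8 passed (17.8%), where 15.4% of all genes did, with 3 positive against 7.78% and 5 negative against 7.6%. A change that passed and reached 2-fold was seen in 3 member genes at 6 h against 4.22% of all genes, in 6 at 22 h against 4.22%, and in 5 for the difference against 4.65%. The median change over the member genes was -0.01 at 6 h and -0.04 at 22 h, beside 0 and 0.01 over all genes, with 24 of 45 below 0 at 6 h and 28 at 22 h. The median size of change was 0.16 and 0.19, beside 0.11 at both times over all genes. In all 20 member genes passed at least 1 comparison (44.4%), where 35% of all tested genes did, and 25 passed none.

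The called genes were mostly bright. Among the 21 member genes above the median intensity of all genes, 14 passed at 6 h (66.7%), where 39.2% of all equally bright genes passed, and 13 passed at 22 h (61.9%), where 34.6% did. Of the 24 dimmer ones, 2 passed at 6 h (8.33%), where 9.72% of all equally dim genes did, and 1 at 22 h (4.17%), where 6.56% did. Of the 25 genes that passed nowhere, 19 had a mean level within 1 log2 unit of the 95th percentile of the negative controls. For such genes the absence of a call says little about their expression, since a level near background compresses any ratio. Both times were compared with pre-LH RNA that may be the same on both slides, so their values are set side by side below. They were tested as separate coefficients of 1 fit to all 8 arrays, which share its estimate of spread and dye effect.

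**Figure D2:**
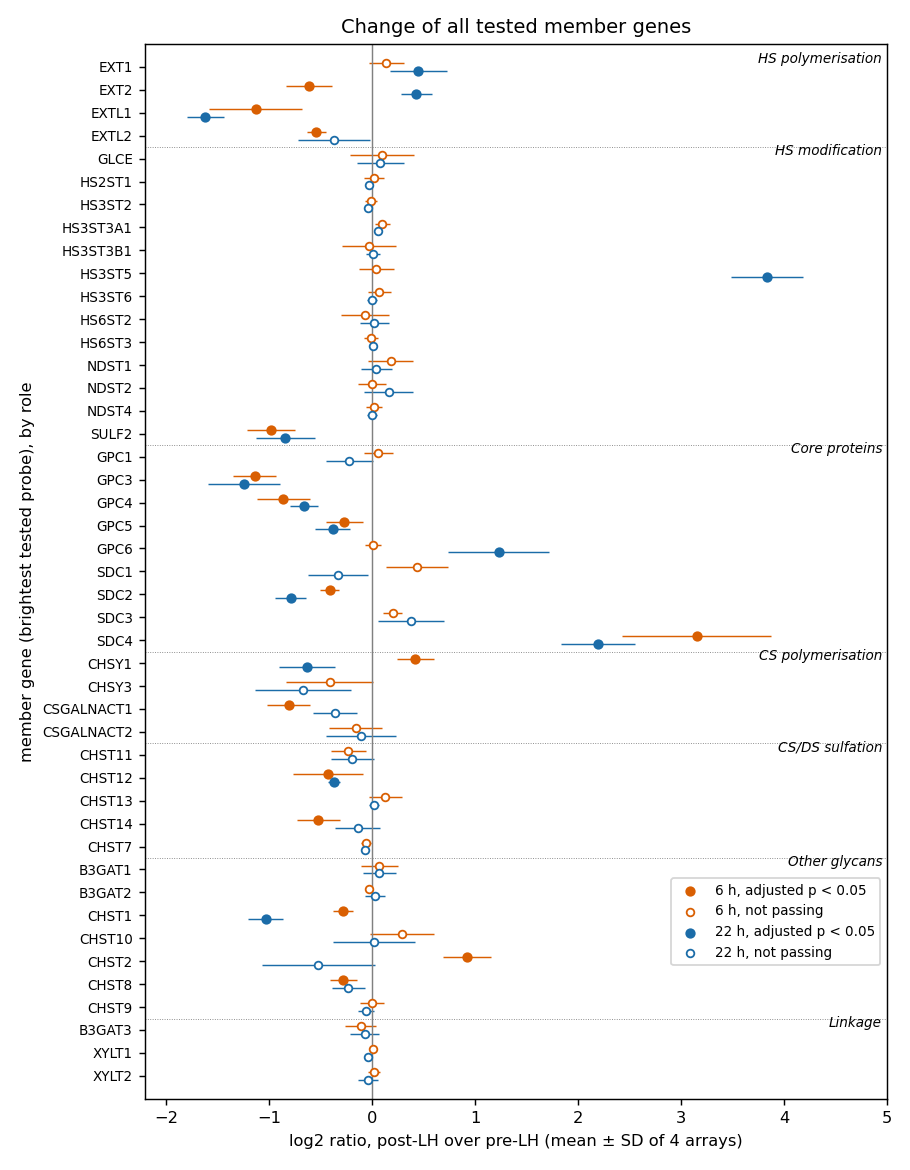
Mean log2 ratio of post-LH over pre-LH RNA (horizontal axis) with its SD over 4 arrays for each of the 45 tested member genes (vertical axis, grouped by role), at 6 h in orange and 22 h in blue. Filled points passed an adjusted p of 0.05. SDC4 and HS3ST5 lie far to the right, while most enzymes of heparan sulfate modification lie on 0. Those enzymes had mean levels below the median intensity of all genes.

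Among the core proteins, 9 of 10 genes were tested and 7 passed at least 1 comparison, which 35% of all tested genes did. SDC4, the syndecan of focal adhesions, had the largest change of any member at 6 h. Its ratios on the 6 h arrays were 3.37, 2.86, 2.36 and 4.03 in replicates 1 to 4. On the 22 h arrays they were 2.54, 1.83, 1.92 and 2.46. All 8 ratios were well above 0, and every post-LH level of SDC4, from 10.85 at 6 h and from 10.07 at 22 h, exceeded every pre-LH level on the same slide. SDC4 rose by 3.15 ± 0.72 (SD, n = 4 arrays), or 8.91-fold, at 6 h (limma, adjusted p = 0.000476) and by 2.19 ± 0.36, or 4.55-fold, at 22 h (limma, adjusted p = 0.00228). Replicate 4 held the highest 6 h ratio. Without replicate 4 of either time the changes were 2.78 (adjusted p = 0.00347) and 2.01 (adjusted p = 0.00632). The lower value at 22 h than at 6 h did not pass (difference -0.97, adjusted p = 0.168), although it did with the replicate number as a block (adjusted p = 0.0401) and with the deposited ratios (-0.87, adjusted p = 0.0329).

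**Figure D3:**
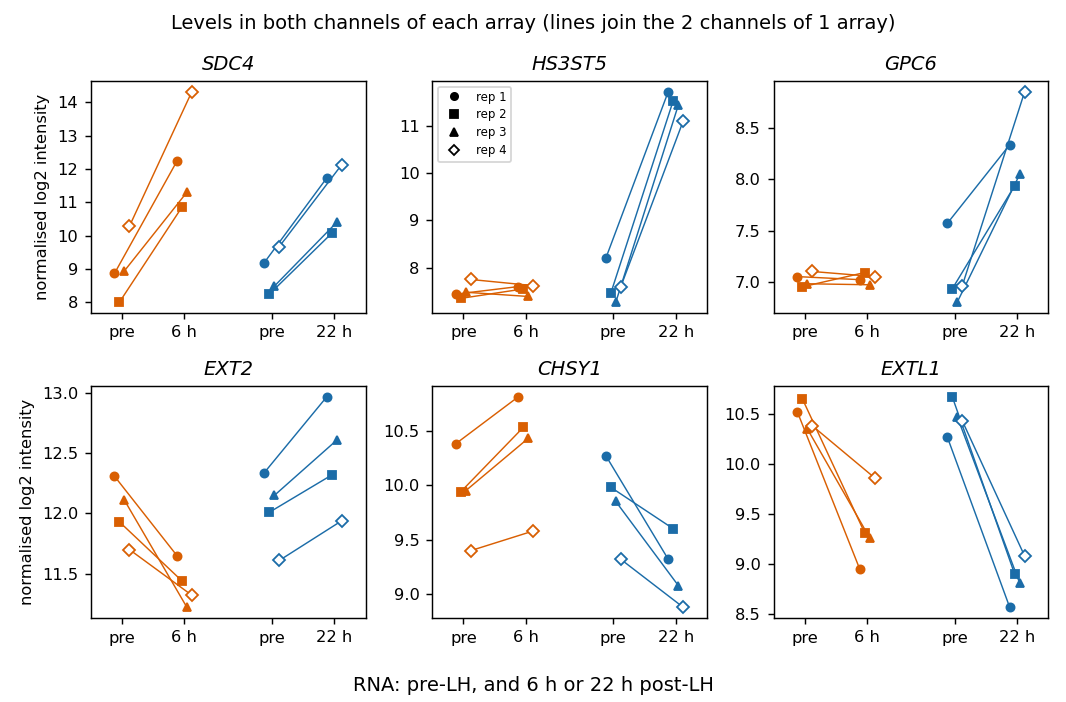
Normalised log2 intensity (vertical axes) of 6 member genes in the pre-LH and post-LH channels of each array, with lines joining the channels of 1 array, 6 h arrays in orange, 22 h arrays in blue and replicate 4 as open diamonds. SDC4 was higher on every array at both times, HS3ST5 and GPC6 separated from pre-LH only on the 22 h arrays, EXT2 and CHSY1 moved in opposite directions at the 2 times, and EXTL1 was lower throughout.

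The other syndecans did not follow SDC4. SDC2, an integral heparan sulfate proteoglycan abundant in mesenchymal cells, fell by 0.41 at 6 h (SE 0.06, adjusted p = 0.0038) and by 0.79 at 22 h (adjusted p = 0.000298), and the further fall of 0.38 between the times also passed (adjusted p = 0.0318). Its ratios lay between -0.53 and -0.3 at 6 h and between -0.97 and -0.65 at 22 h, with no overlap. The SDC2 call in the difference was lost when replicate 1, 2, 3 or 4 of 6 h or replicate 1 or 3 of 22 h was left out (adjusted p = 0.0586 to 0.103), with no background correction (adjusted p = 0.0684) and with the deposited ratios (adjusted p = 0.0757). SDC1, the main syndecan of epithelia, had ratios of 0.69, 0.65, 0.05 and 0.37 at 6 h and of -0.41, -0.33, -0.63 and 0.06 at 22 h. Neither mean passed (0.44, adjusted p = 0.0583, and -0.33, adjusted p = 0.161), but the difference of -0.77 did (adjusted p = 0.0411). That difference no longer passed without replicate 1, 2 or 4 of 6 h or replicate 1, 2 or 3 of 22 h (adjusted p = 0.0835 to 0.128). The 6 h value of SDC1 passed with the replicate block (adjusted p = 0.0423), with a background offset of 10 (adjusted p = 0.042), with the 6 h arrays alone (adjusted p = 0.0143) and on leaving out replicate 3 of 6 h (adjusted p = 0.0464). Without replicate 4 both times passed (0.39, adjusted p = 0.0292, and -0.53, adjusted p = 0.0127). SDC3 had 0.2 at 6 h and 0.38 at 22 h and passed neither test, though the 22 h value passed without replicate 4 of 22 h (0.49, adjusted p = 0.0375) and with no background correction (0.42, adjusted p = 0.0343).

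The glypicans are held to the membrane by a lipid anchor and, as shown in mice and flies, tune Hedgehog, WNT and FGF signals. Before the surge the GPC3 level was between 10.53 and 12.26. GPC3 ratios were -1.07, -0.87, -1.26 and -1.36 at 6 h, and -1.74, -0.93, -1.22 and -1.08 at 22 h. All were clearly negative and the 2 times overlapped. GPC3, a glypican that restrains Hedgehog signalling in mice, fell by 1.14 at 6 h, 2.2-fold (limma, adjusted p = 0.00189), and by 1.24 at 22 h, 2.36-fold (limma, adjusted p = 0.00152). GPC4 fell by 0.86 at 6 h (SE 0.09, adjusted p = 0.000943) and by 0.66 at 22 h (adjusted p = 0.00308).

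GPC6 moved the other way. Its ratios at 6 h were -0.03, 0.14, -0.01 and -0.05, all close to 0. At 22 h they were 0.77, 1.01, 1.25 and 1.9, so the lowest 22 h array lay above every 6 h array. GPC6, which promotes Hedgehog signalling in mice, rose by 1.23 ± 0.49 (SD, n = 4 arrays), 2.35-fold, at 22 h (limma, adjusted p = 0.00187) and by 1.22 relative to 6 h (adjusted p = 0.0113). Pre-LH GPC6 was detected on 3 of 4 arrays of each slide and post-LH GPC6 on 4 of 4, so the fold rests on a dim denominator. Replicate 4 gave the highest ratio, and without it the 22 h change was 1.04 (adjusted p = 0.00546). GPC5 fell slightly, by 0.27 at 6 h (adjusted p = 0.0423) and by 0.38 at 22 h (adjusted p = 0.0145), but its other 2 tested probes did not pass, and the 6 h call was lost with the replicate block (adjusted p = 0.0841), without replicate 4 (adjusted p = 0.183) and without any 1 array except replicate 3 of 6 h (adjusted p up to 0.165). It was also lost with no dye effect (adjusted p = 0.0657), with the 6 h arrays alone (adjusted p = 0.0868) and as the mean over probes (-0.08, adjusted p = 0.16). The 22 h call of GPC5 was lost without replicate 1 (adjusted p = 0.0525) or 3 (adjusted p = 0.0835) of 22 h. GPC1 passed in no comparison (0.06 and -0.22), though the 22 h value passed without replicate 1 of 22 h (-0.34, adjusted p = 0.019).

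Of the 5 enzymes that start or lengthen heparan sulfate, 4 were tested and each of the 4 passed at least 1 comparison, which 35% of all tested genes did; EXTL3 was not tested. EXT1 and EXT2 form the polymerase complex. EXT2 ratios were -0.66, -0.49, -0.89 and -0.38 at 6 h. At 22 h they were 0.63, 0.31, 0.46 and 0.33. Each 6 h array was below 0 and each 22 h array above it. EXT2 fell by 0.61 ± 0.22 (SD, n = 4 arrays) at 6 h (limma, adjusted p = 0.0043), was 0.43 ± 0.15 above pre-LH at 22 h (limma, adjusted p = 0.0197), and the difference was 1.04 (limma, adjusted p = 0.00353). Its partner EXT1 had 0.14 at 6 h, not passing (adjusted p = 0.502), and rose by 0.45 at 22 h (adjusted p = 0.0377), a call lost without replicate 4 (0.37, adjusted p = 0.187) and without any 1 of the arrays of replicates 1, 2 and 4 of 6 h and 1 and 3 of 22 h (adjusted p up to 0.14). The 22 h value of EXT2 did not pass without replicate 1 (0.37, adjusted p = 0.0736), 3 (0.41, adjusted p = 0.105) or 4 (0.46, adjusted p = 0.0518) of 22 h. The 2 subunits had ratios of opposite sign at 6 h on 3 of 4 arrays and of the same sign on all 4 at 22 h.

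EXTL1, an exostosin-like transferase that adds N-acetylglucosamine, had ratios of -1.56, -1.35, -1.09 and -0.52 at 6 h. At 22 h they were -1.7, -1.77, -1.66 and -1.35. All 8 were negative, with replicate 4 the least so at each time. EXTL1 fell by 1.13 ± 0.45 (SD, n = 4 arrays), 2.19-fold, at 6 h (limma, adjusted p = 0.000913) and by 1.62 ± 0.18, 3.08-fold, at 22 h (limma, adjusted p = 0.000225), while the difference of -0.49 did not pass (adjusted p = 0.105). Post-LH levels of EXTL1 lay below every pre-LH level at both times. EXTL2, which can cap the linker in mice, fell by 0.54 at 6 h (adjusted p = 0.0203) and had -0.37 at 22 h (adjusted p = 0.0895). It was dim, with a mean level of 7.5, and was detected post-LH on 3 of 4 arrays at each time. Its other 2 tested probes did not pass, and the 6 h call was lost without replicate 4 (-0.58, adjusted p = 0.0726) and without replicate 1 (adjusted p = 0.105) or 2 (adjusted p = 0.108) of 6 h.

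Of the 16 genes that modify heparan sulfate, 13 were tested and 2 passed at least 1 comparison, which 35% of all tested genes did. Those that did not pass all lay below the median intensity of all genes (8.07). Of all equally dim genes 9.72% passed at 6 h and 6.56% at 22 h. HS3ST5 encodes a sulfotransferase of the 3-O class, whose human enzyme makes the rare sulfate group needed for antithrombin binding. Its ratios were 0.16, 0.2, -0.1 and -0.12 on the 6 h arrays. On the 22 h arrays they were 3.54, 4.08, 4.17 and 3.52. The 6 h arrays scattered around 0 and the 22 h arrays formed a tight group far above them. At 22 h the HS3ST5 level ran from 11.11 to 11.73, where pre-LH levels on both slides ran from 7.27 to 8.2. HS3ST5 rose by 3.83 ± 0.35 (SD, n = 4 arrays), 14.2-fold, at 22 h (limma, adjusted p = 1.78e-05), had 0.04 ± 0.17 at 6 h (limma, adjusted p = 0.903), and the difference between the times was 3.79 (limma, adjusted p = 0.000111). Without replicate 4 the 22 h change was 3.94 (adjusted p = 0.000925). A further HS3ST5 probe, dimmer at a mean level of 7.17, gave ratios between -0.14 and 0.05 at 22 h and did not pass, so the change rests on 1 of 2 probes. Both probes carried the same symbol and the array files do not say which transcripts each would detect.

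No other 3-O-sulfotransferase passed. HS3ST2, HS3ST3A1, HS3ST3B1 and HS3ST6 had changes between -0.04 and 0.1 at the 2 times, with levels near the negative controls. The N-deacetylase and N-sulfotransferases NDST1, NDST2 and NDST4, which start the sulfation of heparan sulfate, had changes between 0 and 0.18 at the 2 times. NDST1 had 0.18 at 6 h (adjusted p = 0.0551), which passed with the replicate block (adjusted p = 0.0468), with a background offset of 10 (0.27, adjusted p = 0.0383) and without replicate 2 (adjusted p = 0.0359) or 4 (adjusted p = 0.0474) of 22 h. GLCE, HS2ST1, HS6ST2 and HS6ST3, the epimerase and the enzymes of 2-O and 6-O sulfation, had changes between -0.07 and 0.1 and did not pass. The mean levels of these genes and of the NDST genes ran from 7.01 to 7.99, so little can be said of them. SULF2, an extracellular sulfatase that removes 6-O sulfate from finished chains, was the other modifier that passed. Its ratios were -0.72, -0.94, -1.27 and -1.01 at 6 h and -0.83, -1.04, -1.04 and -0.43 at 22 h. It fell by 0.98 at 6 h (SE 0.12, adjusted p = 0.00213) and by 0.84 at 22 h (adjusted p = 0.00491), and post-LH levels lay below every pre-LH level of the same slide.

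**Figure D4:**
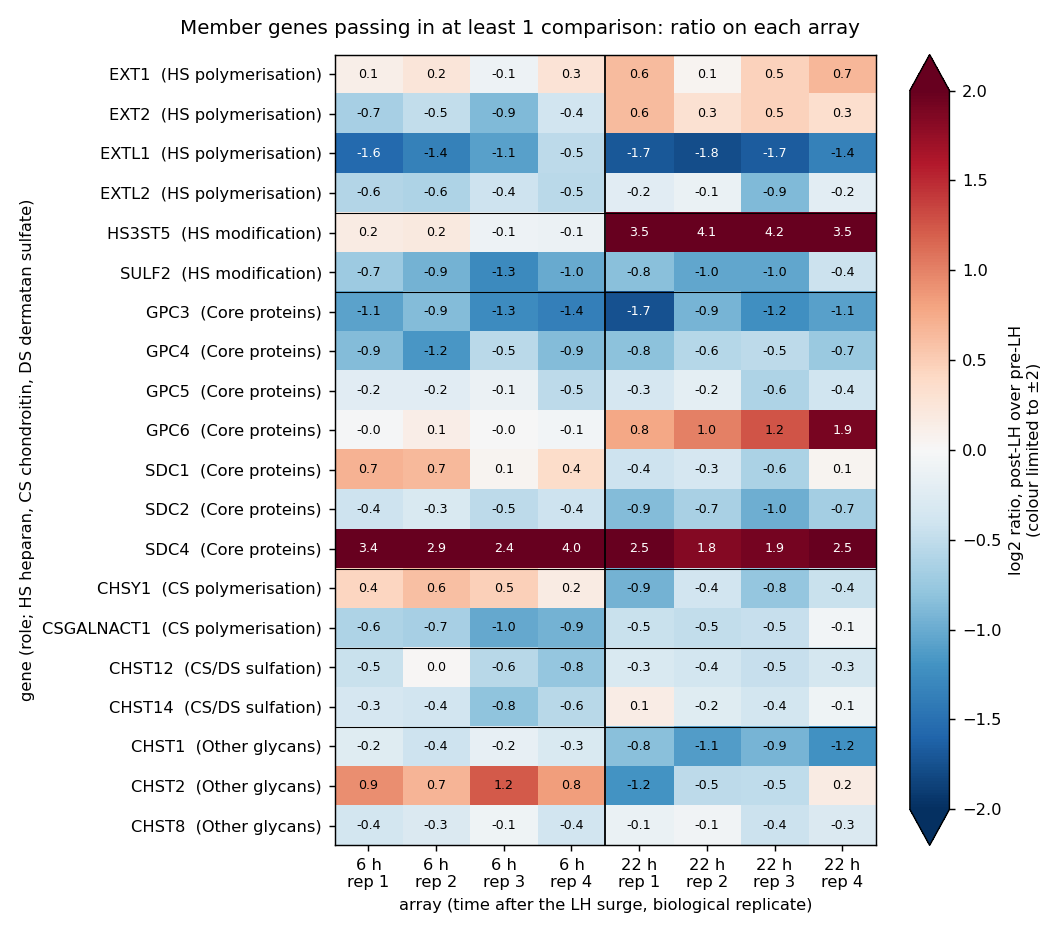
Log2 ratio of post-LH over pre-LH RNA on each of the 8 arrays (columns) for the 20 member genes that passed in at least 1 comparison (rows, grouped by role), with red for higher and blue for lower after the surge and the value printed in each cell. HS3ST5 is near 0 on the 6 h arrays and between 3.52 and 4.17 on the 22 h arrays, SDC4 is high on all 8, and EXT2, CHSY1 and CHST2 differ in sign between the times on all or most arrays.

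The linker enzymes XYLT1, XYLT2 and B3GAT3, which start chains of both kinds, showed no change that passed, with values between -0.11 and 0.02 at 6 h and between -0.07 and -0.04 at 22 h. All 3 lay close to the negative controls, so little can be said of them.

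All 4 genes that start or lengthen chondroitin sulfate were tested, and 2 passed at least 1 comparison, which 35% of all tested genes did. At 6 h 1 was higher and 1 lower, and at 22 h 1 was lower. CHSY1, a chondroitin synthase, had ratios of 0.43, 0.6, 0.48 and 0.17 at 6 h. At 22 h they were -0.95, -0.38, -0.77 and -0.44. The signs were opposite on every array. CHSY1 rose by 0.42 ± 0.18 (SD, n = 4 arrays) at 6 h (limma, adjusted p = 0.039), fell by 0.63 ± 0.27 at 22 h (limma, adjusted p = 0.00947), and the difference was -1.05 (limma, adjusted p = 0.007). The 6 h rise was lost without replicate 4, where the value was 0.49 (adjusted p = 0.0689), without any 1 of the 6 h arrays and without replicate 3 of 22 h (values of 0.36 to 0.5, adjusted p up to 0.176). It was also lost with no background correction (adjusted p = 0.0834) and with the deposited ratios (0.46, adjusted p = 0.067). The 22 h fall was lost without replicate 3 of 22 h (-0.59, adjusted p = 0.0629). A second CHSY1 probe, dim at a mean level of 7.02, had 0.01 and 0.02 and did not pass; as the mean of both probes the CHSY1 changes were 0.21 and -0.31, with a difference of -0.52. CHSY3 had -0.41 at 6 h and -0.67 at 22 h, and neither passed, although the 22 h value did without replicate 4 (-0.9, adjusted p = 0.022). CSGALNACT1, which adds the first sugar that commits a linker to chondroitin sulfate, fell by 0.81 at 6 h (SE 0.1, adjusted p = 0.00197) and had -0.36 at 22 h (adjusted p = 0.0549). Its 22 h value without replicate 4 was -0.5 (adjusted p = 0.0173). CSGALNACT2 did not pass (-0.16 and -0.11).

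Sulfation of chondroitin and dermatan sulfate was represented by 5 tested genes, none of which was higher. In this group 2 passed at least 1 comparison, which 35% of all tested genes did. CHST14, the dermatan 4-O-sulfotransferase, fell by 0.52 at 6 h (SE 0.08, adjusted p = 0.00532) and had -0.14 at 22 h, and the difference of 0.38 (adjusted p = 0.0844) passed with the replicate block (adjusted p = 0.0471) and on leaving out replicate 2 of 22 h (0.47, adjusted p = 0.0339). CHST12, a chondroitin 4-O-sulfotransferase, fell by 0.43 at 6 h (adjusted p = 0.0191) and by 0.37 at 22 h (adjusted p = 0.0412). The CHST12 calls were lost without replicate 4 (adjusted p = 0.101 and 0.0823), and the 22 h call also with the replicate block (adjusted p = 0.0731), with the deposited ratios (adjusted p = 0.0649) and with no dye effect in the model (adjusted p = 0.0735). The 6 h call was lost too without replicate 1 or 3 of 6 h (adjusted p up to 0.102), and the 22 h call without any 1 of the 22 h arrays or replicate 1 or 3 of 6 h (adjusted p up to 0.14). CHST11, with the same activity, had -0.23 at 6 h (adjusted p = 0.0632). It passed at 6 h with the block (adjusted p = 0.0356), with no background correction (-0.3, adjusted p = 0.0074), with the deposited ratios (-0.51, adjusted p = 0.0117) and on leaving out replicate 3 of 6 h (-0.31, adjusted p = 0.0182), and it was detected post-LH on none of the 6 h arrays. CHST7 and CHST13 had changes between -0.07 and 0.13 and did not pass.

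The remaining members act on other glycans. CHST2, which sulfates N-acetylglucosamine, had ratios of 0.93, 0.68, 1.23 and 0.84 at 6 h. At 22 h they were -1.2, -0.52, -0.51 and 0.16. The 6 h arrays were all positive and lay above every 22 h array. CHST2 rose by 0.92 ± 0.23 (SD, n = 4 arrays) at 6 h (limma, adjusted p = 0.00794), had -0.52 ± 0.55 at 22 h (limma, adjusted p = 0.0778), and the difference of -1.44 passed (limma, adjusted p = 0.00875). The 6 h rise of CHST2 missed the threshold without replicate 1 of 6 h (0.83, adjusted p = 0.052). CHST1, a keratan sulfate sulfotransferase, had ratios of -0.24, -0.41, -0.16 and -0.3 at 6 h and of -0.84, -1.12, -0.93 and -1.21 at 22 h, with no overlap between the times. CHST1 fell by 0.28 at 6 h (adjusted p = 0.036) and by 1.03, 2.04-fold, at 22 h (limma, adjusted p = 0.000212), a difference of -0.75 (adjusted p = 0.00492). The 6 h fall was lost without replicate 4 (-0.25, adjusted p = 0.0936), without any 1 of the 6 h arrays and without replicate 3 of 22 h (adjusted p up to 0.166), while the 22 h fall was not (-0.95, adjusted p = 0.00354).

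CHST8, whose enzyme sulfates the sugars of pituitary glycoprotein hormones, fell by 0.28 at 6 h (adjusted p = 0.0323), a call lost with the replicate block (adjusted p = 0.0728) and without replicate 4 (adjusted p = 0.162), and without replicate 1 (adjusted p = 0.152) or 2 (adjusted p = 0.142) of 6 h. The mean level of CHST8 was 7.3, within 1 log2 unit of the 95th percentile of the negative controls. CHST9, CHST10, B3GAT1 and B3GAT2, of which CHST10 and the B3GAT genes make the HNK-1 carbohydrate, had changes between -0.06 and 0.29 and did not pass.

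Without replicate 4 of both times, a comparison added after the data had been seen, 11 member genes passed at 6 h, 15 at 22 h and 8 in the difference. With each array centred on its median in place of loess, 0, 2 and 1 passed, and 86, 137 and 22 of all genes. The calls that remained under median centring were HS3ST5 at 22 h and in the difference, and GPC6 at 22 h, while SDC4 at 6 h had 3.01 (adjusted p = 0.0587). With the 22 h arrays fitted alone 8 member genes passed at 22 h, and the calls for CHSY1, EXT1, EXT2, GPC3, GPC5 and SULF2 were lost. Fitting the 6 h arrays alone gave 16 member genes at 6 h. The number of arrays limits the precision of every value, and each time lay on a slide of its own, so in the difference between the times slide and time cannot be told apart.

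Other genes of the pathway were read from fixed lists. Of the genes that supply sugars and sulfate or finish the linker, 13 of 14 were tested, with medians of -0.09 at 6 h and -0.06 at 22 h. At 6 h 2 were higher, against 11.6% of all genes, and 3 lower, against 12.9%. At 22 h 2 were higher, against 9.82%, and 2 lower, against 10.8%. PAPSS1 and PAPSS2 both make the sulfate donor. PAPSS1 fell by 0.57 at 6 h (adjusted p = 0.00749) and PAPSS2 rose by 0.96 at 22 h (adjusted p = 0.0213), though its replicate 4 had -0.01. UGDH, which makes the glucuronic acid donor of both chain types, had 0.3 at 6 h and fell by 0.74 at 22 h (adjusted p = 0.0129), a difference of -1.03 (adjusted p = 0.0176). The nucleotide sugar transporter SLC35D2 fell by 0.43 at 6 h (adjusted p = 0.00199) and rose by 0.32 at 22 h (adjusted p = 0.00822). The linker kinase FAM20B fell by 0.32 and 0.28, and SLC26A2, a sulfate transporter, and SLC35D1 rose by 0.14 and 0.13 at 6 h.

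The further enzymes of chondroitin and dermatan sulfate numbered 5, of which 3 were tested. At 6 h 2 were lower, against 12.9% of all genes, and at 22 h all 3 were, against 10.8%, with medians of -0.52 and -0.85. UST, which sulfates uronic acid, fell by 1.48 at 6 h (adjusted p = 0.000539) and by 0.9 at 22 h (adjusted p = 0.00453). CHPF, a cofactor of chondroitin polymerisation, fell by 0.52 and 0.54, and DSE, the dermatan sulfate epimerase, fell by 0.85 at 22 h (adjusted p = 0.0283).

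Of 22 genes that degrade the chains in lysosomes or outside the cell, 17 were tested. At 6 h none was higher, against 11.6% of all genes, and 6 were lower, against 12.9%. At 22 h 2 were higher, against 9.82%, and none was lower, against 10.8%. In the difference between the times 7 were higher at 22 h and none lower, where 7.78% of all genes were higher. GUSB, the lysosomal beta-glucuronidase, had ratios of 0.04, -0.59, -0.5 and -0.42 at 6 h and of 2.6, 2.33, 2.47 and 2.01 at 22 h. It rose by 2.35 at 22 h (limma, adjusted p = 5.71e-05). GLB1, the lysosomal beta-galactosidase, fell by 0.45 at 6 h (adjusted p = 0.0328) and rose by 0.6 at 22 h (adjusted p = 0.0138). SUMF1, which activates all sulfatases, fell by 1.18 at 6 h (adjusted p = 0.00503) and had 0.31 at 22 h, and NAGLU fell by 0.75 at 6 h (adjusted p = 0.00101).

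Core proteins outside the syndecans and glypicans were tested for 26 of 32 genes. At 6 h 3 were higher, against 11.6% of all genes, and 7 lower, against 12.9%. At 22 h 1 was higher, against 9.82%, and 8 were lower, against 10.8%. The median was -0.07 at both times. The small leucine-rich proteins OGN, OMD and BGN were lower at both times, with OGN at -1.5 and -2.7, OMD at -0.98 and -1.13 and BGN at -0.49 and -1.09. ESM1, an endothelial proteoglycan, fell by 1.03 and 2.51, and COL15A1 fell by 1.63 at 22 h. SRGN, the proteoglycan of secretory granules, fell by 2.11 at 22 h (adjusted p = 0.022). FMOD and THBD were higher at 6 h (0.57 and 0.52) and lower at 22 h (-0.79 and -0.58), with differences of -1.36 and -1.1 that passed. TGFBR3, or betaglycan, fell by 0.96 at 6 h (adjusted p = 0.0223) and had 0.43 at 22 h, a difference of 1.39 (adjusted p = 0.0312). Beside these, 1 of 10 endothelial markers was higher and 1 lower at 6 h, and 5 were lower at 22 h, against 10.8% of all genes. Their mean levels ran from 9.18 to 9.64 before the surge, 9.14 to 9.57 at 6 h and 8.94 to 9.45 at 22 h. None of the 12 fibroblast and smooth muscle markers, 2 of which (DCN and LUM) are also in the core protein list, passed at either time. Their mean level ran from 11.74 to 12.24 before the surge. It ran from 11.56 to 11.81 at 6 h and from 11.54 to 12.45 at 22 h. At each time it lay above the mean level of the granulosa markers. The part of fibroblast and smooth muscle RNA in the member genes was not tested. The part of endothelial RNA in the values of ESM1 and COL15A1 was not tested.

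Proteins that bind heparan sulfate were tested for 37 of 42 genes, with a median of 0 at both times. At 6 h 10 were higher, against 11.6% of all genes, and 8 lower, against 12.9%. At 22 h 4 were higher, against 9.82%, and 6 lower, against 10.8%. FGF2 and its receptor FGFR1, which need heparan sulfate to signal, rose by 1.73 (adjusted p = 4.33e-05) and 1.77 (adjusted p = 0.000161) at 6 h and had -0.02 and 0.34 at 22 h. TFPI2, a heparin-binding protease inhibitor, rose by 3.36 at 6 h, THBS1 by 2.21 and the EGF-like ligand AREG by 1.4, and none of the 3 passed at 22 h. PTX3, a matrix protein of the expanded cumulus, rose by 4.11 at 6 h and 4.92 at 22 h. TNFAIP6 passed as higher at both times but was saturated on 6 arrays and is given no size. SDCBP, or syntenin, which binds the tails of syndecans, rose by 1.21 at 6 h (adjusted p = 0.000303) and by 0.57 at 22 h (adjusted p = 0.0068), beside SDC4. ROBO1 fell by 0.95 and 1.55, and the VEGF receptor KDR fell by 1.15 at 22 h. KDR is also among the endothelial markers, and SERPINE2 of this list is among the granulosa markers. The part of endothelial RNA in the value of KDR was not tested.

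Of 11 leukocyte markers 4 were higher at 6 h, where 11.6% of all genes were, and 1 was lower at 22 h, with mean levels from 7.7 to 8.02 before the surge, 7.93 to 8.06 at 6 h and 7.7 to 8.05 at 22 h. Of 6 surface epithelium markers 2, KRT8 and KRT18, were higher and 1, KRT19, lower at 6 h, and KRT19 alone was lower at 22 h. The mean level of the surface epithelium markers ran from 7.9 to 8.03 before the surge, from 8.2 to 8.41 at 6 h, above every pre-LH channel, and from 7.81 to 8.14 at 22 h. Of 7 oocyte markers 1 was higher at 6 h and none passed at 22 h, and of 5 erythrocyte markers 1 was lower at 6 h and none passed at 22 h.

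**Figure D5:**
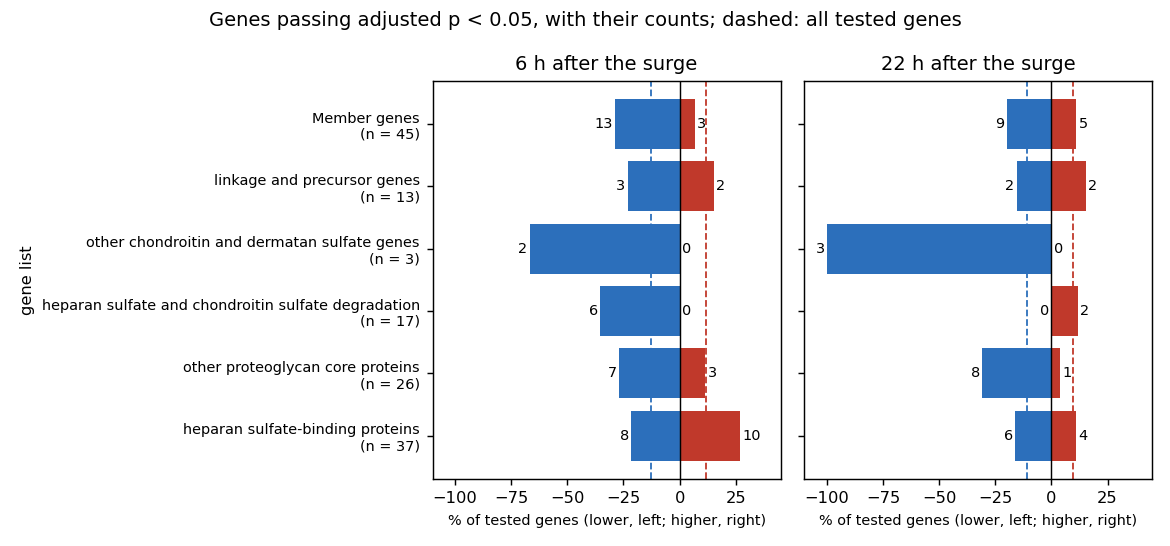
Share of tested genes that passed as higher (right, red) or lower (left, blue) in percent at 6 h and 22 h, for the member genes and the 5 other pathway lists (vertical axis), with the number of genes beside each bar. Dashed lines give the share over all tested genes. The member genes lie past the line for lower genes at both times and short of the line for higher genes at 6 h.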

How the data were processed

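Per the file headers, the deposited scanner files hold unnormalised intensity per spot and its surroundings, in Cy3 and Cy5. The authors' deposited table holds processed log2 ratios; how they were made is not stated in these sources. Compared with the scanner ratios it correlated at 0.874 to 0.932 per array, with slopes of 1.07 to 1.3 and medians from -0.016 to 0.00502, so it was read as log2, turned for the dye swaps and centred, and served as an alternative. Per the labels' protocols, RNA was linearly amplified and coupled to the dyes without an enzyme.

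Background was corrected by normexp (offset 50) and ratios were normalised within arrays by loess in limma 3.58.1 under R 4.3.3, with control spots at weight 0 and 294 spots marked as ignored left out. A probe was tested when its intensity in some group passed the 95th percentile of 153 negative controls on a fraction of 0.5 or more of that group's arrays (38453 of 43794 probes). The model held a common dye effect and a coefficient per time (5 residual degrees of freedom, prior 1.98), with Benjamini-Hochberg adjustment over all tested probes. Adjusted p-values are limma's throughout, and SE is its moderated standard error. No probe used for a member had a passing dye effect or was saturated. Symbols came from the platform annotation, with 1524 updated through the reference gene table. The fit was tested on simulated data.

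The labels number the replicates 1 to 4 at each time. The deviations of same-numbered arrays from their group means correlated at 0.36, 0.56, 0.45 and 0.23. Deviations of pre-LH levels of the same number (replicates 1 to 3) correlated at 0.66 to 0.71 across slides, so the numbers were treated as possible pairs. The main fit held no replicate term, so its p-values ignore any pairing. The numbers entered only in the alternative with the replicate number as a block. Same-numbered arrays also shared a dye orientation: between the arrays of 1 orientation the differences correlated at 0.32 (replicate 1 minus 2) and 0.04 (3 minus 4), and 3 of the 4 6 h arrays correlated best with the 22 h array of their own number. The fit with the replicate number as a block is given beside a result where it changed the call.

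The members, gene lists and alternatives were chosen with earlier results of these data known. Members with a passing change of at least 1 log2 unit are given array by array, and genes of the lists (5 of the pathway, 8 of cell type markers) by name where they passed with a change of at least 1, were among the 2 largest of their list, or few of the list passed. The alternatives were median centring, other background settings and filters, the deposited ratios, no dye effect, 1 time alone, the replicate block, the mean over probes and leaving out arrays.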

Additional observations from a re-analysis of the deposited data

Results flagged for a closer look

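In 8 member genes the change at 22 h differed from the change at 6 h in the fit itself (limma, adjusted over all tested probes), which compares slides as well as times. The difference on the log2 scale was 3.79 for HS3ST5, 1.22 for GPC6, 1.04 for EXT2, -1.44 for CHST2, -1.05 for CHSY1, -0.77 for SDC1, -0.75 for CHST1 and -0.38 for SDC2. EXT2 and CHSY1 passed in opposite directions at the 2 times, although the 6 h call of CHSY1 and the 22 h call of EXT2 were lost when single arrays were left out. The second CHSY1 and HS3ST5 probes did not pass. The call for SDC1 was lost when any of 6 single arrays was left out.

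In 3 sets of 4 arrays 1 ratio lay far from the rest by Dixon's criterion, which chance meets in about 1 of 20 sets. The 45 tested member genes each gave 1 set per time, so some sets of this kind are expected by chance. The 22 h ratio of CSGALNACT1 in replicate 4 was -0.05, where the others lay between -0.49 and -0.45. The 22 h ratio of EXTL2 in replicate 3 was -0.89, where the others lay between -0.23 and -0.14. The 22 h ratio of HS3ST2 in replicate 3 was -0.11, a small deviation at a level near the negative controls.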

How the results depend on the processing

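No value for a member gene that passed changed sign under any alternative. Median centring in place of loess moved every count: 86 genes and 0 member genes passed at 6 h, 137 and 2 at 22 h, and 22 and 1 in the difference. A fit to the arrays of 1 time alone leaves fewer residual degrees of freedom. With the 22 h arrays alone 1062 genes and 8 member genes passed at 22 h. With the 6 h arrays alone 3712 genes and 16 member genes passed at 6 h. Leaving out 1 array (or replicate 4 of both times) gave 1972 to 3800 genes and 9 to 17 member genes at 6 h, 1492 to 2875 and 9 to 16 at 22 h, and 1223 to 2062 and 6 to 8 in the difference. The lowest member counts came without 6 h replicate 1 (9), 6 h replicate 4 (10) and 22 h replicate 3 (9). With the replicate block 17, 13 and 10 member genes passed, and it changed no member call beyond those given in the report. Median centring was the only alternative that ended the calls for CHST14, CSGALNACT1, EXT2, EXTL1, GPC3, GPC4, SDC2, SDC4 and SULF2 at 6 h, for CHST1, EXTL1, GPC4, SDC2 and SDC4 at 22 h, and for CHST1, CHST2, CHSY1, EXT2 and GPC6 in the difference; the cause was not tested. Further calls, not given in the report, were gained under at least 1 alternative. They were CHST11, CHST8, EXTL2 and CHST2 at 22 h, HS3ST3A1 at 6 h, and EXTL1, EXTL2 and GPC1 in the difference. CSGALNACT1 and CHSY3 at 22 h passed with the deposited ratios too. CSGALNACT1 at 22 h also passed with a background offset of 10, with detection on all arrays of a group and with no dye effect (adjusted p up to 0.0499). No alternative ended the calls for HS3ST5 at 22 h (range 1.9 to 4.51, the lowest as the mean of both probes) and in the difference, or for GPC6 at 22 h. Near background, signal limits what can be seen: 19 of the 25 uncalled members lay within 1 log2 unit of the negative controls.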
